A study of Mus musculus with 4 samples.

Results

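The genes described here make, spend and recycle glutathione, or remove peroxides and superoxide: 47 mouse genes listed by symbol, from the glutamate-cysteine ligase pair Gclc and Gclm to the superoxide dismutases Sod1 and Sod2. Of these, 45 had a probe on the array whose accession RefSeq assigns to the gene, and all 45 were read well above background on all 4 arrays and entered the test, among 19338 genes tested in all. Gstp2 and Gstk1 had no probe found by accession and were not analysed here. Messenger RNA was measured on 1-colour Agilent arrays, 1 array per sample, in mouse embryonic stem cells grown on gelatin with leukaemia inhibitory factor (LIF) and carrying a Tc-inducible (tetracycline-inducible) system for knock-down of FBL. FBL is fibrillarin, the methyltransferase of the nucleolus that modifies ribosomal RNA. The 2 knock-down samples were cultured without Tc, and the 2 control samples with 1000 ng/mL Tc, all for 2 days. Every knock-down sample therefore also lacked the drug, so loss of FBL and removal of Tc cannot be told apart. The labels do not say how many clones the line stands for or whether the samples of a group came from separate cultures, so each p-value is set against the spread among these samples alone, part or all of which may be technical.

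Glutathione is a tripeptide of glutamate, cysteine and glycine that is built in 2 steps, with cysteine as the scarce part. Glutathione peroxidases and peroxiredoxins use thiols to reduce peroxides, glutathione transferases attach glutathione to reactive compounds, and glutathione reductase and thioredoxin reductase restore the spent thiols with NADPH. Many of these genes are driven by the transcription factor NRF2 (gene Nfe2l2), which binds antioxidant response elements in DNA and is held back by KEAP1. Pluripotent stem cells rely on these enzymes to keep peroxides low.

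Levels below are log2 values of the processed signal relative to the array's own 75th percentile, so they compare arrays for 1 probe and not one gene with another. Changes are log2 differences, knock-down minus control, from a limma fit over all genes with n = 2 per group, and a gene rose or fell where its adjusted p was under 0.05. The 75th percentile of the signal was 635 and 501 in the knock-down arrays and 558 and 801 in the control arrays, and precision is limited by having 4 arrays. Knock-down sample 2 was hybridised on a second slide, and the other 3 samples shared slide 1. Fbl had levels of 5.98 and 5.94 in the knock-down samples, against 8.63 and 8.12 in the controls (change −2.42 ± 0.25 SE, adjusted p = 5.01e-04). All 9 measured markers of embryonic stem cells, among them Pou5f1, Nanog and Zfp42, were well above background on all 4 arrays, and 0 of the 9 were called. Nanog, Zfp42, Tdgf1 and Esrrb had changes of −0.83, −0.61, −0.45 and −0.35, with both knock-down values below both controls. Pou5f1 had −0.07, and Sox2, Dppa5a, Utf1 and Klf4 had changes above 0, of 0.29, 0.23, 0.08 and 0.03. In Sox2 and Klf4 both knock-down values lay above both controls. Over all genes tested, both knock-down values lay below both controls in 30.6% and above them in 20.5%. Of the markers of other cell types bright enough to be tested, 0 of 3 fibroblast genes (of 7 measured), 0 of 6 trophectoderm genes and 0 of 3 neural genes were called. The endoderm gene Sox7 was called lower, as 1 of 6 tested of 8 measured, and Kdr of mesoderm higher, as 1 of 3 tested of 4 measured. The fibroblast list summed to 3.20 to 3.51 in the knock-down samples, against 4.29 to 6.72 in the controls (linear signal relative to the 75th percentile), with Col3a1, Dcn and Postn below background on all arrays. Most of that sum was Thy1 alone (1.54 and 1.67 in the knock-down samples, against 2.68 and 2.03 in the controls, log2 levels). Col1a1 and Col1a2 had changes above 0, of 0.46 and 0.26. Lum, with 1.39, was not tested, since it was well above background on 1 knock-down array only. The trophectoderm list summed to 30.2 to 33.3 in the knock-down samples, against 20.5 to 25.9 in the controls. Its largest term was Tfap2c (4.60 and 4.37 in the knock-down samples, against 3.79 and 3.54 in the controls, log2 levels). Cdx2 and Hand1 also had changes above 0, of 0.83 and 0.70, with both knock-down values above both controls. Krt8, Krt18 and Eomes had changes of −0.32, −0.08 and −0.37, and in Krt8 and Eomes both knock-down values lay below both controls. The part of these lists in the results below was not tested.

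Among the 45 measured genes, Gpx3 rose and Cth fell, and the other 43 did not pass. That is 4.44% of the members called, against 6.40% of all genes tested, 3.82% called higher and 2.58% called lower, so the share of members called was near the background. Among the 17969 genes well above background on all 4 arrays, as all measured members were, 5.06% were called. Without control 1, 6 members rose and 3 fell among 4180 called genes, without control 2, 2 rose and 3 fell among 2482, and within slide 1, 1 rose and 0 fell among 575 (3 members and 1544 genes at an unadjusted p under 0.05). The median change of the members was −0.12 and that of all genes −0.06. At an unadjusted p under 0.05 stood 20.0% of the members and 20.1% of all genes. The 2 groups did not overlap in 25 members, against 51.1% of all genes. Both knock-down values lay below both controls for 18 members, or 40%, against 30.6% of all genes, and above them for 7 members, or 15.6%, against 20.5% of all genes. In the other 20 members the groups overlapped. Both knock-down values lay between the controls in 16 of the 45 members, and in 5159 of all 19338 genes. The controls were the wider pair over all genes, with an SD of the difference within the pair of 0.51, against 0.32 for the knock-down pair. Control 1 was above control 2 in 36 of the 45 members (80.0%, against 62.6% of all genes). Control 2 minus control 1 had a median of −0.32 in the members and −0.19 over all genes. Knock-down 2 minus knock-down 1 had a median of −0.001 in the members. Without control 1 the members' median change was 0.03 and without control 2 it was −0.28, so its sign rested on control 1.

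**Figure D1:**
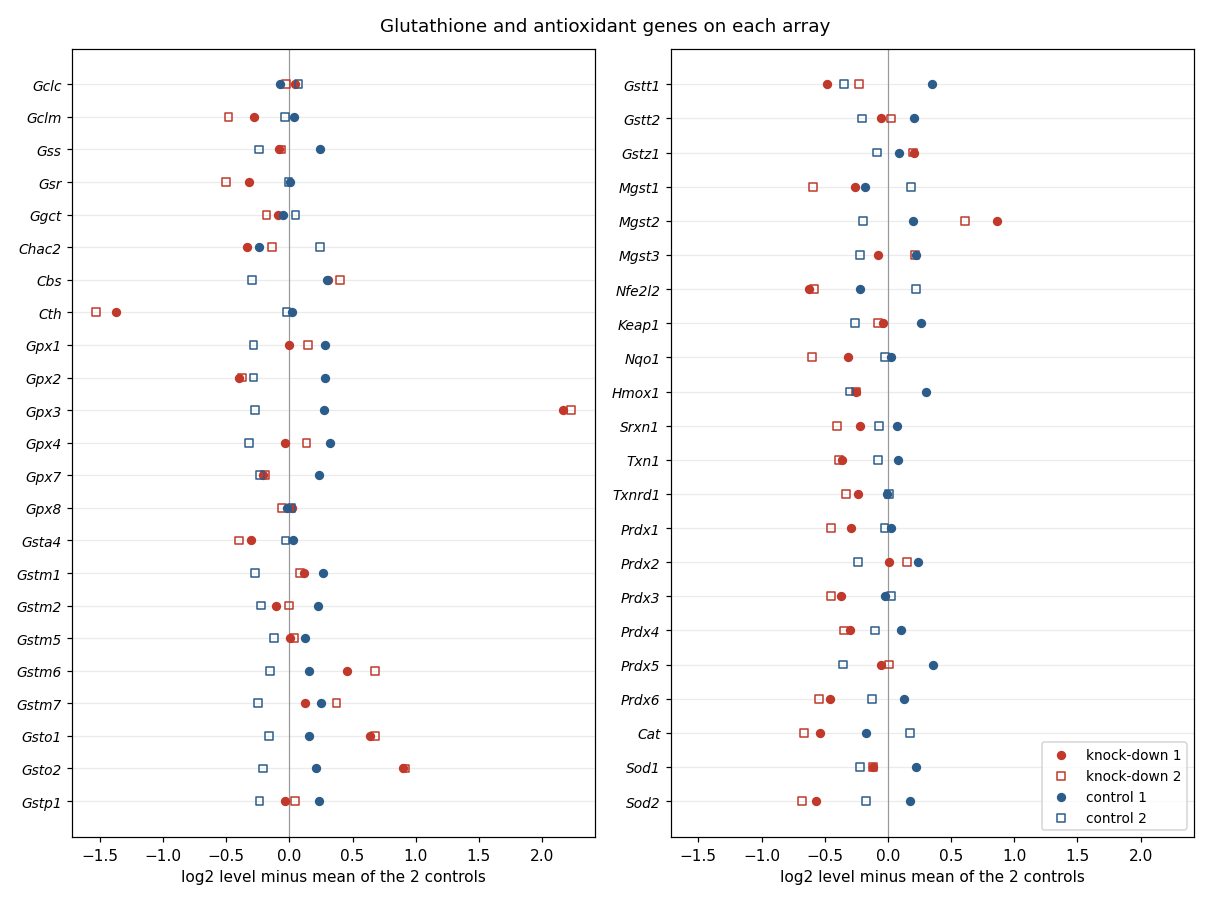
Log2 level of each of the 45 measured genes on each array (points), relative to the mean of its 2 controls (grey line at 0), in the order of their roles from synthesis of glutathione to superoxide dismutases. Gpx3 stands to the right at about 2.2 and Cth to the left at about −1.5; in 20 genes the knock-down points (red) overlap the control points (blue).

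Of the glutathione peroxidases, Gpx3 was the gene that rose. It encodes the secreted, selenium-containing peroxidase of blood plasma and extracellular fluid. Its level was 1.90 and 1.97 in the knock-down samples, against 0.02 and −0.53 in the controls. The knock-down samples lay close together and well above both controls, 4.58-fold higher in the mean (change 2.20 ± 0.25 SE, 95% interval 1.63 to 2.76, adjusted p = 8.80e-04). A larger rise was measured for 0.641% of all genes tested. The change lay between 1.87 and 2.47 over 16 alternative settings, and its call ended in 1 of them, with no filter on dim probes (adjusted p = 0.122).

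The other 5 peroxidases did not pass. Gpx1, the abundant cytosolic enzyme, had levels of 7.65 and 7.81 in the knock-down samples, against 7.94 and 7.38 in the controls, with both knock-down values between the controls (change 0.07, 95% interval −0.50 to 0.65). Gpx4, which reduces lipid peroxides in membranes and guards against ferroptosis, had a change of 0.05, Gpx7 and Gpx8 of the endoplasmic reticulum had −0.20 and −0.02, and Gpx2, best known from the gut lining, had −0.39. Gpx2 passed downwards without control 2 alone (−0.67, adjusted p = 0.0448). Gpx1, Gpx2 and Gpx4 are selenoproteins as Gpx3 is, and 1 of these 4 selenium-containing peroxidases was called.

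The transsulfuration pathway makes cysteine from homocysteine, and of its 2 enzymes Cth fell and Cbs did not pass. Cth, cystathionine gamma-lyase, which carries out the last step and is known in mouse as a target of the stress factor ATF4, had levels of 2.82 and 2.67 in the knock-down samples, against 4.22 and 4.18 in the controls. The 2 samples of each group lay close together and the groups far apart, 2.73-fold lower in the knock-down (change −1.45 ± 0.23 SE, 95% interval −1.95 to −0.95, adjusted p = 0.00408). A larger fall was measured for 1.13% of all genes. The change kept to −1.53 to −1.37 over the 16 alternatives. Its call ended within slide 1, which leaves out knock-down 2 (adjusted p = 0.0772), and with no filter on dim probes (0.170). Cbs, cystathionine beta-synthase, which carries out the step before, had levels of 1.55 and 1.65 in the knock-down samples, against 1.54 and 0.95 in the controls (change 0.35 ± 0.26 SE, adjusted p = 0.514). Its knock-down values lay at or just above control 1 and clearly above control 2 only, and it passed without control 1 alone (0.65, adjusted p = 0.0406).

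**Figure D2:**
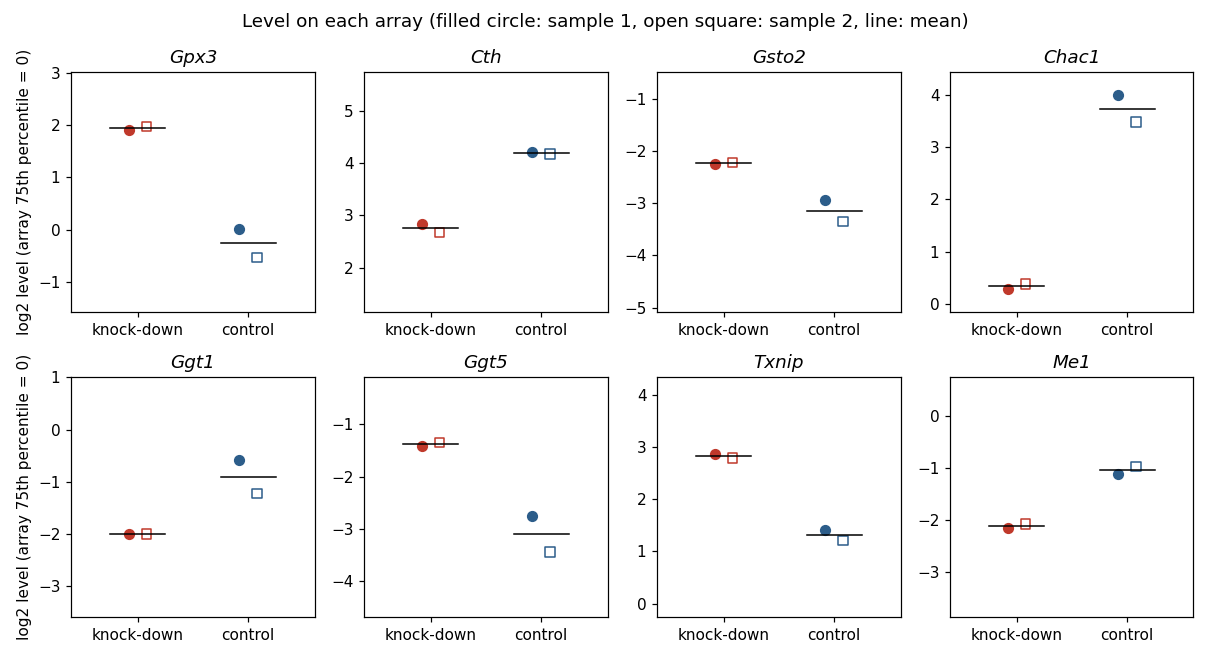
Log2 level on each array (75th percentile of the array = 0) of Gpx3, Cth and Gsto2 and of 5 called genes of neighbouring pathways, knock-down at left and control at right, with the mean of each group as a line; every panel spans the same number of log2 units. The groups do not overlap in any of the 8 panels, nor in 51.1% of all genes, and the genes shown were chosen by their values. Knock-down lies above control for Gpx3, Gsto2, Ggt5 and Txnip and below it for Cth, Chac1, Ggt1 and Me1. The called genes Ephx1 and Gstt4 of those pathways are not shown.

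None of the 3 genes that build glutathione passed. Gclc, the catalytic subunit of glutamate-cysteine ligase, the rate-limiting enzyme, had levels of 1.17 and 1.10 in the knock-down samples, inside the control values of 1.06 and 1.20 (change 0.01, 95% interval −0.49 to 0.51). Gclm, its regulatory subunit, had a change of −0.38 ± 0.23 SE (adjusted p = 0.405) with both knock-down values below both controls. Gss, glutathione synthetase, which adds glycine, had levels of 2.63 and 2.65 in the knock-down samples, against 2.95 and 2.47 in the controls, again with the knock-down inside the control pair. Gsr, glutathione reductase, had levels of 1.95 and 1.77 in the knock-down samples, against 2.27 and 2.26 in the controls (change −0.41, adjusted p = 0.361), and its 2 other probes gave −0.39 and −0.28. Of the enzymes that cut gamma-glutamyl bonds, Ggct had levels of 2.82 and 2.72 in the knock-down samples, against 2.86 and 2.95 in the controls (change −0.13). Chac2, which slowly degrades glutathione, had a change of −0.24 with overlapping groups.

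Of the soluble glutathione transferases 0 of 12 passed, and Gsto2 was the uncalled member with the lowest adjusted p. Gsto2, an omega-class transferase that also reduces dehydroascorbate, had levels of −2.24 and −2.22 in the knock-down samples, against −2.94 and −3.35 in the controls (change 0.91 ± 0.24 SE, adjusted p = 0.0549). Its groups lay apart, but the gene was dim, and its other probe was below background on all arrays. Gsto2 passed in 9 of the 16 alternatives, and its change was 0.47 under normexp background correction (adjusted p = 0.305). Gsto1, the second omega-class gene, had a change of 0.66 (adjusted p = 0.142), and Gstm6 of the mu class 0.57 (adjusted p = 0.217). Both had their knock-down values above their controls. The remaining 9 had changes between −0.35 (Gstt1) and 0.25 (Gstm7). Gstp1, the pi-class enzyme, stood at 6.42 and 6.51 in the knock-down samples, against 6.70 and 6.23 in the controls, with a change of 0.00 at this probe and −0.05 at its other. Mu-class and pi-class genes have close relatives, and whether a probe also reads one of them was not tested. Of the membrane-bound transferases, Mgst2, which can also make leukotriene C4, had a change of 0.74 (adjusted p = 0.120) with its groups apart, and 0.10 under normexp. Mgst1 had −0.43, with −0.46 at its other probe, and Mgst3, at 1.15 and 1.45 in the knock-down samples against 1.46 and 1.01 in the controls, had 0.07. Gsto2, Gsto1, Gstm6 and Mgst2 were singled out after their values were seen.

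NRF2, KEAP1 and the 3 target enzymes grouped with them here did not pass. These 5 genes all had changes below 0, as did 56.2% of all genes. Members of the other groups can be driven by NRF2 too, and 16 of all 45 members had changes above 0. The signs of the 5 genes were the same under each of 4 other scalings and sources of the values. In the list of 14 partners and further targets given below, 7 changes lay above 0 and 7 below. Without control 1, Keap1 (0.20) and Hmox1 (0.05) had changes above 0. Nfe2l2 itself had levels of 2.58 and 2.62 in the knock-down samples, against 2.98 and 3.43 in the controls (change −0.60 ± 0.24 SE, adjusted p = 0.200), and −0.58 at its other probe. Its groups lay apart, and it passed in 2 of the 16 alternatives, without control 1 (−0.83, adjusted p = 0.0267) and unfiltered with trend (adjusted p = 0.0497). Keap1, which marks NRF2 for degradation, had levels of 3.02 and 2.98 in the knock-down samples, inside the control values of 3.32 and 2.81 (change −0.06). Nqo1, a quinone reductase and textbook NRF2 target, had −0.46 (adjusted p = 0.308), and Srxn1, sulfiredoxin, which repairs overoxidised peroxiredoxins, −0.31. Other probes of Srxn1 gave −0.18 and −0.19, with overlapping groups. Hmox1, heme oxygenase, stood at 4.33 and 4.33 in the knock-down samples, against 4.89 and 4.28 in the controls (change −0.25, 95% interval −0.84 to 0.33).

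The stretches of DNA before the start of these genes were searched for the antioxidant response element core, TGACNNNGC, on both strands, because this is the sequence NRF2 acts through. RefSeq windows on GRCm38.p6 covered 38 of the 45 members, with Cth, Gclc, Gsr, Gsta4, Gstt2, Hmox1 and Prdx6 not among them. Over the 250 bases before the start, 9 of 38 members held the core, or 23.7%, against 13.9% of 10273 named genes tested. They were Gclm, Ggct, Gstm5, Gstm7, Mgst1, Nfe2l2, Prdx1, Sod1 and Txnrd1, and their changes lay between −0.60 and 0.25, none of them called. A second motif, the C/EBP-ATF composite element that ATF4 binds, was searched as TGATGNAAN and found in 0 of 38 members, against 2.42% of the named genes tested. By their letters, the 2 motifs cannot both match the same run of bases. The called genes of the lists given further below were searched likewise. Of these, Ggt1 (change −1.09) held the antioxidant core and Chac1 (−3.40) the composite element. A match is a run of letters and not a measured site. In the sequences below, from RefSeq and 5′ to 3′ on the strand of the gene, capitals mark the motif, shown for 4 members with the antioxidant core, for Chac1 with the composite element, and for Gpx3, the member that rose, which holds neither in its 250 bases and is shown for its last 100.
Gclm, chr3:122245393-122245461, plus strand: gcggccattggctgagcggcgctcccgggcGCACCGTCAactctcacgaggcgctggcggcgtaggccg
Prdx1, chr4:116685436-116685504, plus strand: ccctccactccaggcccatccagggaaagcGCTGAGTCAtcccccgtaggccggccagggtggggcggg
Txnrd1, chr10:82859084-82859152, plus strand: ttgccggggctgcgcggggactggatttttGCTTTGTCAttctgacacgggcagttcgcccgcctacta
Nfe2l2, chr2:75704865-75704913, minus strand: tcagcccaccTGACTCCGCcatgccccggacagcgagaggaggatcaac
Chac1, chr2:119351018-119351086, plus strand: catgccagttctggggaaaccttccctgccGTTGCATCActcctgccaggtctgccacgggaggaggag
Gpx3, chr11:54902754-54902853, plus strand: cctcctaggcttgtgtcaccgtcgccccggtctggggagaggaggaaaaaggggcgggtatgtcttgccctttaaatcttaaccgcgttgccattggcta
In Gclm, Prdx1, Txnrd1 and Chac1 the motif is read on the opposite strand, so its reverse complement stands in capitals.

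Of the thioredoxin system and the peroxiredoxins, 0 of 8 genes passed. Changes lay below 0 in 7 of the 8, against 56.2% of all genes. They did so in 6 with quantile normalization or the 75th percentile over bright probes, where Prdx5 lay above 0. Txn1, thioredoxin, had levels of 5.52 and 5.49 in the knock-down samples, against 5.96 and 5.80 in the controls (change −0.38 ± 0.23 SE, adjusted p = 0.404). Txnrd1, the selenium-containing reductase that recharges it, had a change of −0.28. Both had their knock-down values below their controls, as had 30.6% of all genes. Prdx1, Prdx3, Prdx4 and Prdx6, peroxiredoxins of the cytosol, the mitochondrion, the endoplasmic reticulum and the cytosol again, had changes of −0.37, −0.41, −0.32 and −0.50 with their groups apart, and the lowest adjusted p of these 4 was 0.263, for Prdx6. Prdx2 stood at 7.02 and 7.16 in the knock-down samples, against 7.25 and 6.78 in the controls (change 0.08), and its 2 other probes gave 0.11 and 0.16. Prdx5 had −0.02.

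Catalase and the mitochondrial superoxide dismutase were the lowest of the remaining enzymes. Cat, which breaks down hydrogen peroxide in peroxisomes, had levels of 0.46 and 0.33 in the knock-down samples, against 0.82 and 1.16 in the controls (change −0.60 ± 0.24 SE, adjusted p = 0.189). Sod2, the manganese enzyme of the mitochondrion, had levels of 6.94 and 6.83 in the knock-down samples, against 7.68 and 7.34 in the controls (change −0.62 ± 0.24 SE, adjusted p = 0.170). In both genes the groups lay apart. Cat passed without control 1 (−0.77, adjusted p = 0.0327), and Sod2 under normexp (−0.74, adjusted p = 0.0355) and without control 2 (−0.80, adjusted p = 0.0366). Sod1, the copper and zinc enzyme of the cytosol, stood at 8.56 on both knock-down arrays, between the control values of 8.90 and 8.46 (change −0.12, 95% interval −0.66 to 0.43). Nfe2l2 and Sod2 are shown by array because of their size of change, which was known when they were chosen.

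The width of the intervals says what the arrays could show. Standard errors of the members lay between 0.22 and 0.28 on the log2 scale. Of the 43 members that did not pass, 35 had a single-gene 95% interval that stayed inside a 2-fold change in both directions. The interval reached a 2-fold fall for Cat, Nfe2l2, Prdx6 and Sod2, and a 2-fold rise for Gsto2, Gsto1, Gstm6 and Mgst2. It excluded 0 without adjustment for 7 of the 43, which are these 8 without Prdx6.

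**Figure D3:**
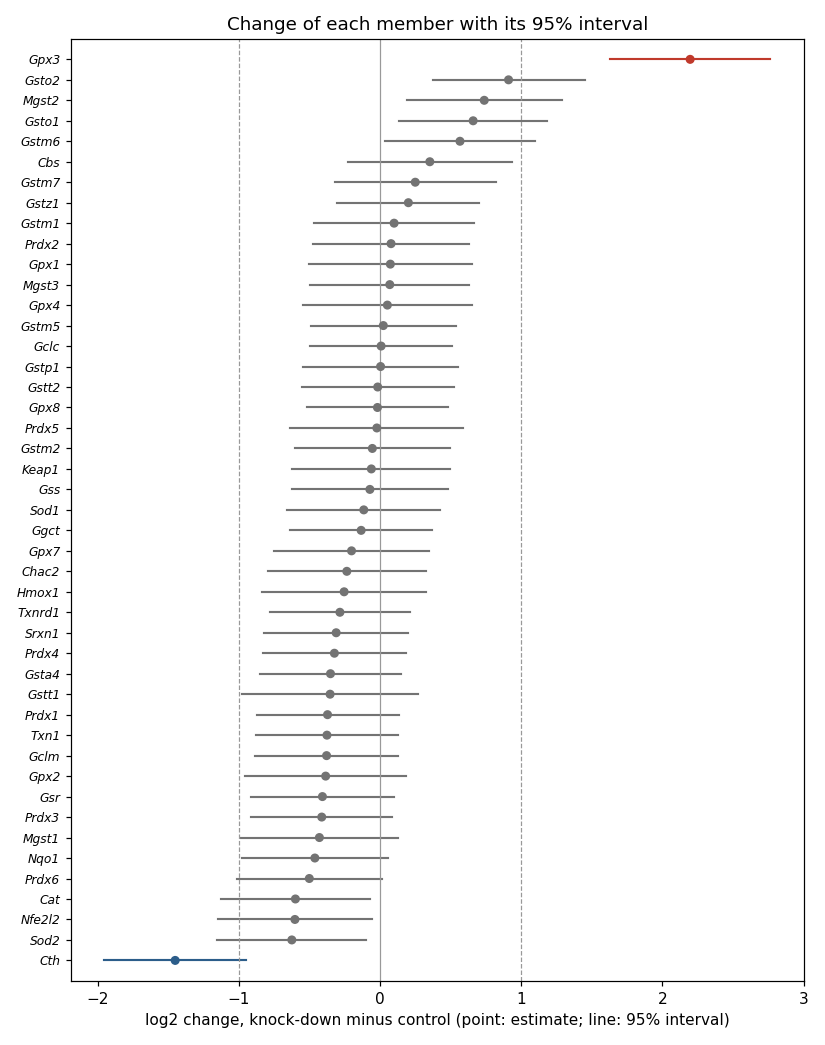
Log2 change, knock-down minus control, of each of the 45 measured genes (point) with its single-gene 95% interval from limma (line, n = 2 per group), ordered by size; red and blue mark the called genes and dashed lines a 2-fold change. Gpx3 at 2.20 and Cth at −1.45 stand apart from 43 uncalled genes between −0.62 and 0.91.

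Genes of neighbouring pathways, in 7 lists outside the 47, were read in the same fit. Of 69 tested, 3 rose and 4 fell, or 10.1%, against 6.40% of all genes, and their median change was −0.11. One of these, Gstt4, entered the test only through the controls, the group where it was brighter. Over the 68 genes well above background on all 4 arrays, 3 rose and 3 fell, or 8.82%, against 5.06% of all such genes. Among genes that break down or otherwise spend glutathione, 1 of 10 rose and 2 fell. Chac1, the stress-induced enzyme that degrades glutathione, had levels of 0.29 and 0.38 in the knock-down samples, against 3.99 and 3.48 in the controls (change −3.40 ± 0.25 SE, adjusted p = 1.66e-04), while its constitutive relative Chac2 had −0.24 as given above. Ggt1 and Ggt5 are cell-surface enzymes that take the gamma-glutamyl group from glutathione and its conjugates, and they went opposite ways. Ggt5 had levels of −1.42 and −1.35 in the knock-down samples, against −2.75 and −3.44 in the controls (change 1.71 ± 0.27 SE, adjusted p = 0.00468), and 1.01 under normexp. Ggt1 had levels of −1.993 and −1.999 in the knock-down samples, against −0.59 and −1.22 in the controls (change −1.09 ± 0.26 SE, adjusted p = 0.0382). Ggt1 did not pass within slide 1 (adjusted p = 0.316), without knock-down 1 (0.240), with quantile normalization (0.0683) and with no filter (0.387). Glo1 and Hagh, the glyoxalases, had −0.21 and 0.30 and did not pass.

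Txnip, which binds and inhibits thioredoxin, was the called gene among 14 of the thioredoxin, glutaredoxin and repair list. Its levels were 2.86 and 2.79 in the knock-down samples, against 1.42 and 1.21 in the controls (change 1.51 ± 0.23 SE, adjusted p = 0.00348), and its other probe gave 1.28. Glrx3 and Glrx5 of that list had 0.16 and −0.17. Of 8 genes that supply NADPH, Me1, malic enzyme, fell, with −2.15 and −2.07 in the knock-down samples, against −1.11 and −0.97 in the controls (change −1.07 ± 0.23 SE, adjusted p = 0.0201). Me1 did not pass within slide 1 (adjusted p = 0.288), without knock-down 1 (0.305), with no filter (0.287) and under normexp, where the change was −0.55 (adjusted p = 0.191). Taldo1 and Tkt of the pentose phosphate pathway had 0.07 and −0.22. Of 14 partners and further targets of NRF2, Ephx1, an epoxide hydrolase, rose (change 2.35, adjusted p = 5.61e-04), while the ferritin genes Fth1 and Ftl1 had 0.03 and −0.04. None of 7 genes of cysteine import and the methionine cycle passed, and Mat2a and Slc3a2 had −0.18 and −0.23. Slc7a11, the cystine carrier, was on the array but not well above background on any array at its 3 probes. None of 6 genes of selenoprotein synthesis passed, and Sephs2 and Pstk had −0.33 and −0.31. In 5 of the 6 both knock-down samples lay below both controls, as in 30.6% of all genes. Among 10 other members of these enzyme families, Gstt4 fell (adjusted p = 0.0429). It was well above background on both control arrays and neither knock-down array (measured means −6.23 in the knock-down samples and −5.16 in the controls). The bound on its fall was at least 1.48-fold in this fit alone. Gstt4 did not pass in 12 of 15 alternatives, and its change of −0.13 under normexp was smaller than that bound. Ccs and Gstm3 of that list had 0.05 and 0.04.

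**Figure D4:**
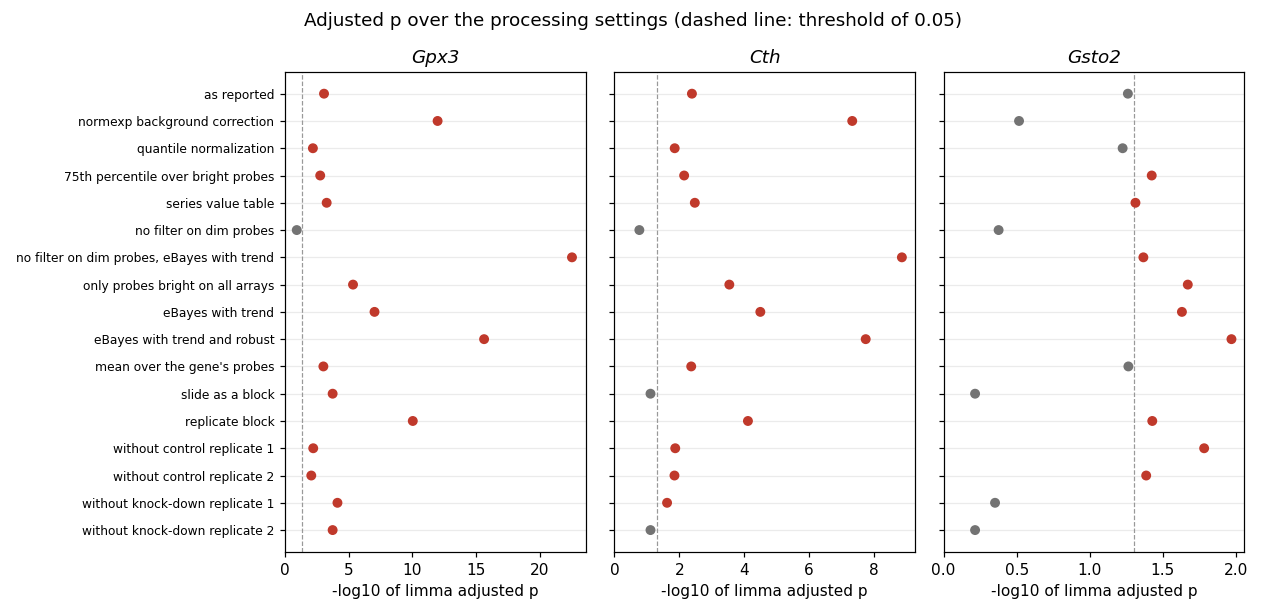
Adjusted p of Gpx3, Cth and Gsto2 as reported and under 16 alternative settings (rows), as −log10 on the horizontal axis with its own range in each panel. Red points lie past the threshold of 0.05 (dashed line). The rows for the slide block and without knock-down 2 show the same fit. Gpx3 stays past it in 15 of 16 alternatives, Cth in 13 and Gsto2 in 9.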

How the data were processed

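Per the file headers, the authors used Agilent Feature Extraction (version 10.7.3.1), whose processed intensity has the background subtracted and spatial trends removed, with no scaling across arrays. The value table they deposited is on the log2 scale with each array's 75th percentile at 0, and no label or header says how it was made. On each array about 99.8% of its entries lay within 0.01 of the values used here, and all member probes did.

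Spots with an outlier flag were left out and spots of a probe averaged. The log2 signal minus each array's 75th percentile was compared with limma 3.58.1 in R 4.3.3 (lmFit, eBayes, two-sided, Benjamini-Hochberg over 19338 genes, tested on simulated data first). A probe entered when well above background on both arrays of a group, and a gene was read by its brightest probe. Accessions were named through RefSeq GRCm38.p6, and 16799 probes kept their accession. A bound (at least N-fold) sets the brighter mean against, per array, the higher of the dim probe's signal and the lowest signal well above background. Named genes are Fbl, the members, and the called genes and up to 2 brightest of each of 7 related lists. Members and lists were chosen with earlier results of these data known.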

Additional observations from a re-analysis of the deposited data

How the results depend on the processing

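Over 16 alternative settings, Gpx3 and Cth kept their direction, and neither change moved by over 1.5 times. Of the 16, 1 was chosen after seeing the data (no filter on dim probes with a variance trend). The slide block and the fit without knock-down 2 are the same fit, counted as 2 settings, since the block leaves that sample out. With no filter and no trend, 0 members rose and 0 fell and limma called 0 genes (2967 genes and 3 members at an unadjusted p under 0.05). With trend added to that fit, 3 members rose and 2 fell among 2473 called genes, Gsto1, Gsto2 and Nfe2l2 joining. The members called higher were 2, with Gsto2 as the second, when the 75th percentile was taken over bright probes, from the series value table, over probes bright on all arrays, with trend, and with a replicate block. They were 3 with trend and robust, among 2150 called genes. Under normexp 2 members fell, with Sod2 as the second. That fit used the median spot signal, since the mean was not among the columns used here. With the slide as a block, which leaves out knock-down 2, 0 members fell and 575 genes were called. Leaving out 1 sample gave 575 to 4180 called genes, 1 to 6 members higher and 0 to 3 lower, with the upper values of genes and members higher without control 1 (2482 genes without control 2 and 785 without knock-down 1). In fits without a control, only the knock-down pair gives the spread. Under normexp, the slide block, the replicate block, the unfiltered fit with trend and the fits without a knock-down sample, the variance prior had infinite degrees of freedom, so a gene's own spread did not enter its test. The shared replicate numbers are not stated to pair samples, and same-numbered deviations correlated at 0.003 across genes, so the replicate block, with 1746 called genes, says nothing of pairing. The members' median change stayed between −0.28 and 0.03.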
